A study of Mus musculus with 2 samples.

Results

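The genes described here are 10 members of the CXC chemokine system, the ligands Cxcl1, Cxcl2, Cxcl3, Cxcl9, Cxcl10, Cxcl12 and Cxcl16 and the receptors Cxcr2, Cxcr4 and Cx3cr1. They were taken by gene symbol from the 31253 features of the count tables, and all 10 were found. The cells came from infarcted mouse brain dissected 3 days after transient middle cerebral artery occlusion (tMCAO), a model of ischaemic stroke in which an artery is blocked and then reopened. A single library was made from flox mice, called WT in the design text, and a single library from Hilpda conditional knockout (cKO) mice. Hilpda encodes a lipid droplet protein induced by hypoxia. Brain tissue of both groups was digested with collagenase and the cells were profiled with BD Rhapsody single-cell RNA-seq. The sources used here give no Cre driver, deleted exons, strain, age or number of animals in each library.

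Chemokines are small secreted proteins that direct the movement of leukocytes through G protein-coupled receptors. CXC ligands of the Cxcl1, Cxcl2 and Cxcl3 type attract neutrophils through Cxcr2, whereas Cxcl9 and Cxcl10 are induced by interferons and attract T cells and natural killer (NK) cells through Cxcr3. Cxcl12 is a homeostatic ligand of Cxcr4 that is made by stromal and endothelial cells, and Cxcl16 is a membrane-bound ligand of Cxcr6 that also binds oxidised lipids. Cx3cr1 is the receptor of the CX3C ligand fractalkine and in the brain is best known as a microglial gene.

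The libraries held 8593 (flox) and 7382 (cKO) barcodes with 67864602 and 70665440 unique molecular identifiers (UMIs), and 8065 and 6984 cells were kept, with medians of 6997 and 8741 UMIs. In both libraries 56 barcodes were the same. Over all kept cells, the level of Hilpda was 273 CPM (UMIs of a gene as parts per 1e6 UMIs of the same cells) for the flox library and 214 CPM for the cKO library. Because the deleted exons are not given, these UMIs may lie outside the deleted part and do not check the labels. Cells were grouped by clusters made without the 10 genes and named from fixed markers that hold none of them, so that no member took part in forming the classes. All fixed markers of each class were above 0 in that class in both libraries. That does not set the classes apart, since endothelial markers such as Cldn5 (80 and 22 UMIs) were also above 0 in microglia-like cells. Naming needed at least 3 markers of a list raised over the other clusters. Microglia-like cluster 3 had 3 of 10, and macrophage-like cluster 12 had 3 of 11. Of 16 named classes, 15 with at least 50 cells over both libraries are described, and 8 with at least 100 cells in each library are compared between the libraries. For each class and library, the UMIs of a gene were summed and divided by all UMIs of those cells to give CPM. With 1 library per group there is no replicate check and no test was made. Ranges in parentheses are exact 95% intervals that cover counting error only, and the effect of the knockout cannot be told apart from that of library preparation.

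The stretches upstream of Cxcl1, Cxcl2 and Cxcl3 are shown because these 3 ligands share a receptor and a stretch of chromosome 5, and that of Cxcl10 because it is an interferon-induced gene. RefSeq promoters (GRCm38.p6, 250 bases before each start) were found for 9 of the 10 genes, all but Cxcl16. Capitals mark matches to an NF-kB-like motif, GGGNNTTTCC, or in Cxcl10 to an interferon-like motif, GAAANNGAAA, searched on both strands.
Cxcl1, chr5:90891135-90891194, + strand: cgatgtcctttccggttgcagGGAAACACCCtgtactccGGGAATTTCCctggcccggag
Cxcl2, chr5:90903789-90903848, + strand: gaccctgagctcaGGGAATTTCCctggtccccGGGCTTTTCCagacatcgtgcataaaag
Cxcl3, chr5:90785991-90786050, + strand: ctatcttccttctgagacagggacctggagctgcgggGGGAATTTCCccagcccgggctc
Cxcl10, chr5:92349070-92349129, - strand: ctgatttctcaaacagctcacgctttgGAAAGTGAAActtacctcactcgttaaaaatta

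The same 10 letters, GGGAATTTCC, stood 71 to 62 bases before the start of Cxcl1, 97 to 88 bases before that of Cxcl2 and 73 to 64 bases before that of Cxcl3. GGGNNTTTCC was present in these 3 of the 9 promoters and in 464 of all 32851 promoters of the same length (1.41%). GAAANNGAAA was present in that of Cxcl10 and in 978 of all promoters (2.98%). A short hypoxia-like motif, ACGTG, occurred in the promoters of Cxcl1 and Cxcl3 and in 16.6% of all promoters. These matches describe letters in a window and do not show binding. Cxcl1 (chr5:90891241-90893115), Cxcl2 (chr5:90903871-90905938) and Cxcl3 (chr5:90786103-90789600) lie near each other on chromosome 5 of GRCm38, as do Cxcl9 (chr5:92321347-92328079) and Cxcl10 (chr5:92346638-92348889).

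For all 10 genes the class with the highest mean level of both libraries was the highest in flox, and for 8 of them it was also the highest in cKO, the exceptions being Cxcl1 and Cxcl9. Neutrophil-like cells led for Cxcl2, Cxcl3, Cxcr2 and Cxcr4, microglia-like cells for Cxcl10 and Cx3cr1, endothelial cell-like cells for Cxcl12 and dendritic cell-like cells for Cxcl16. Cxcl1 was shared by macrophages and stromal classes, and Cxcl9 was almost absent.

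**Figure D1:**
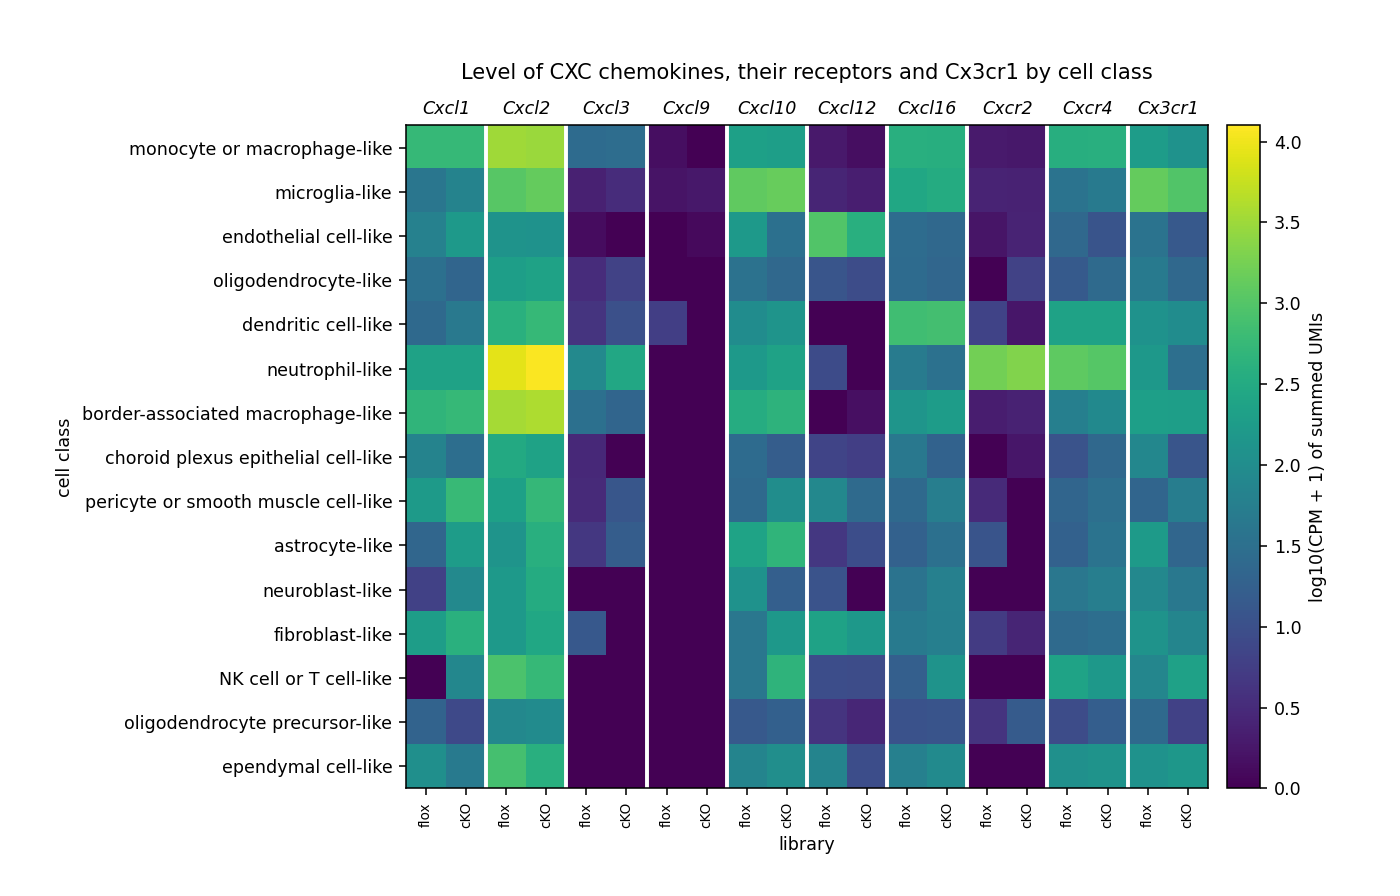
Level of the 10 genes in 15 cell classes. Each row is a class and each pair of columns is a gene in the flox and cKO libraries; colour gives log10(CPM + 1) of the summed UMIs. Neutrophil-like cells reach the brightest value for Cxcl2 (8461 CPM in flox and 12009 CPM in cKO), and Cxcl12 is bright mainly in endothelial cell-like cells.

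Among the neutrophil-attracting ligands, Cxcl2 was present at high levels in every phagocyte class. It stood at 8461 CPM (8110 to 8824) in flox and 12009 CPM (11679.5 to 12345) in cKO neutrophil-like cells, at 3471 and 3943 CPM in border-associated macrophage-like cells, at 3241 and 3069 CPM in monocyte or macrophage-like cells and at 1063 and 1343 CPM in microglia-like cells. The ranges spanned by the 2 libraries did not overlap between any neighbours in this order. Among cells with at least 1000 UMIs, thinned to 1000 each, 91.9% of flox and 96.6% of cKO neutrophil-like cells held a Cxcl2 UMI. For endothelial cell-like cells these shares were 12.3% and 12.6%. Cells with fewer UMIs, among them many neutrophil-like cells, were left out of such shares. Macrophage-like cells, the most numerous class, held 74.7% and 69.1% of all Cxcl2 UMIs of the libraries, and the neutrophil-like cells 1.63% and 3.54%. Macrophage-like cells were also deeper, with medians of 7957 and 10068.5 UMIs against 1065 and 1296.5 in neutrophil-like cells. The order by CPM is therefore not an order of UMIs per cell.

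Cxcl1 had another distribution. Monocyte or macrophage-like cells had 562 CPM in flox and 559 CPM in cKO and held 88.5% and 79.8% of the Cxcl1 UMIs, and border-associated macrophage-like cells stood at 474 and 561 CPM. Pericyte or smooth muscle cell-like cells, the mural cells of vessels, stood at 173 and 569 CPM and fibroblast-like cells at 191 and 402 CPM. The range of the mural cells between the libraries overlapped with those of the other 3 classes and cannot be ordered against them. Both macrophage classes overlapped with each other and were above the fibroblast-like cells in both libraries. Neutrophil-like cells had 228 and 229 CPM of Cxcl1, and microglia-like cells only 40.2 and 68.0 CPM.

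The balance of Cxcl1 and Cxcl2 therefore set stromal and vascular classes apart from phagocyte classes, but did not separate all classes. Per 100 Cxcl2 UMIs, neutrophil-like cells held 2.70 (flox) and 1.90 (cKO) Cxcl1 UMIs and microglia-like cells 3.78 and 5.06. Macrophage-like cells held 17.4 and 18.2 and border-associated macrophage-like cells 13.7 and 14.2. Endothelial cell-like cells held 49.6 and 132, mural cells 80.8 and 105, and fibroblast-like cells 115 and 143. The stromal and vascular classes were thus above every phagocyte class in both libraries, by more than the counting intervals. This ratio is read across classes only, since capture can differ between the 2 genes.

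**Figure D2:**
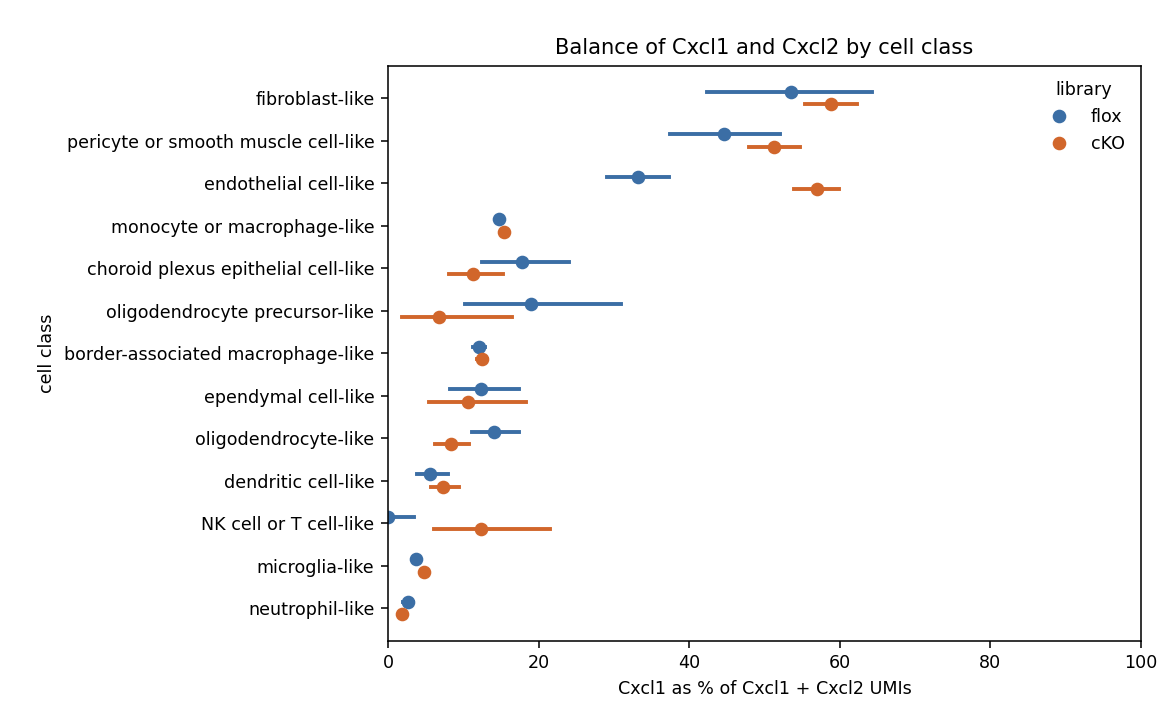
Cxcl1 as a percentage of Cxcl1 plus Cxcl2 UMIs, by class and library, for classes with at least 50 UMIs of the pair in each library. Points are the shares and lines their exact 95% binomial intervals (counting error only). Fibroblast-like, mural and endothelial cell-like cells lie between 33.1% and 58.9%, and microglia-like and neutrophil-like cells lie below 5%.

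Within macrophage-like cells Cxcl2 was detected more often in cells with Cxcl1 than in cells without it. At 1000 UMIs per cell, Cxcl2 was detected in 91.9% of flox and 90.2% of cKO cells that held a Cxcl1 UMI, and in 77.6% and 75.2% of those that did not. Of the 6 macrophage-like clusters, cluster 12, which was led by Gpnmb and Lyz2, was the lowest for both, with 131 and 57.9 CPM of Cxcl1 and 859 and 672 CPM of Cxcl2. The name of cluster 12 rested on only 3 of 11 markers. In the other 5 clusters Cxcl1 ranged from 448 to 650 CPM and Cxcl2 from 2400.2 to 3864 CPM over both libraries.

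Cxcl3 was rare. It reached 85.2 CPM (53.4 to 129) in flox and 288 CPM (239 to 345) in cKO neutrophil-like cells, and stood at 25.7 and 28.1 CPM in macrophage-like cells and at 31.5 and 20.6 CPM in border-associated macrophage-like cells. Neutrophil-like cells were above the next class in both libraries, while both macrophage classes overlapped. The Cxcl2 and Cxcl3 transcripts share 126 stretches of 50 bases, none of them in the last 500 bases, so some reads may have been placed on either gene and the Cxcl3 values are uncertain.

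The interferon-induced ligands were unequal. Cxcl9 had 33 UMIs in the whole flox library and 19 in the cKO library, and the highest class, dendritic cell-like cells, held 6 and 0, so no order of classes was detectable at this depth. Cxcl10 was abundant. Microglia-like cells stood at 1266 CPM (1251 to 1281) in flox and 1380 CPM (1364 to 1397) in cKO and held 77.4% and 76.8% of all Cxcl10 UMIs. Border-associated macrophage-like cells stood at 341 and 447 CPM, astrocyte-like cells at 238 and 476 CPM and macrophage-like cells at 215 and 198 CPM. Microglia-like cells were above all others, and the ranges of border-associated macrophage-like, astrocyte-like and macrophage-like cells overlapped with that of NK cell or T cell-like cells (41.2 and 459 CPM). The astrocyte-like values rested on few cells: 8.82% of flox and 12.96% of cKO cells held a Cxcl10 UMI.

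Cxcl10 also varied within microglia-like cells. Cluster 23, led by the interferon-induced genes Ifit3 and Ifit2, had 2796 CPM in flox and 3914 CPM in cKO but only 56 and 24 cells. Cluster 4, in which Cxcl10 itself and cell cycle genes such as Cdk1 led, had 2118 and 2148 CPM in 475 and 380 cells. Cluster 2, led by the homeostatic genes P2ry12 and Slc2a5, had 844 and 996 CPM, and cluster 3, led by Cd5l and Mmp12, had 741 and 861 CPM. Among macrophage-like cells, cluster 7, led by Ms4a4c and the interferon-induced gene Rsad2, had 609 and 594 CPM, and the small cycling cluster 26 had 812 and 1000 CPM. Cxcl10 took no part in making the clusters, although leading genes were taken over all genes. An exon of Cxcl10 overlaps Art3 on the opposite strand, which held 166 and 121 UMIs in the libraries, and whether the counting used strand is not given.

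**Figure D3:**
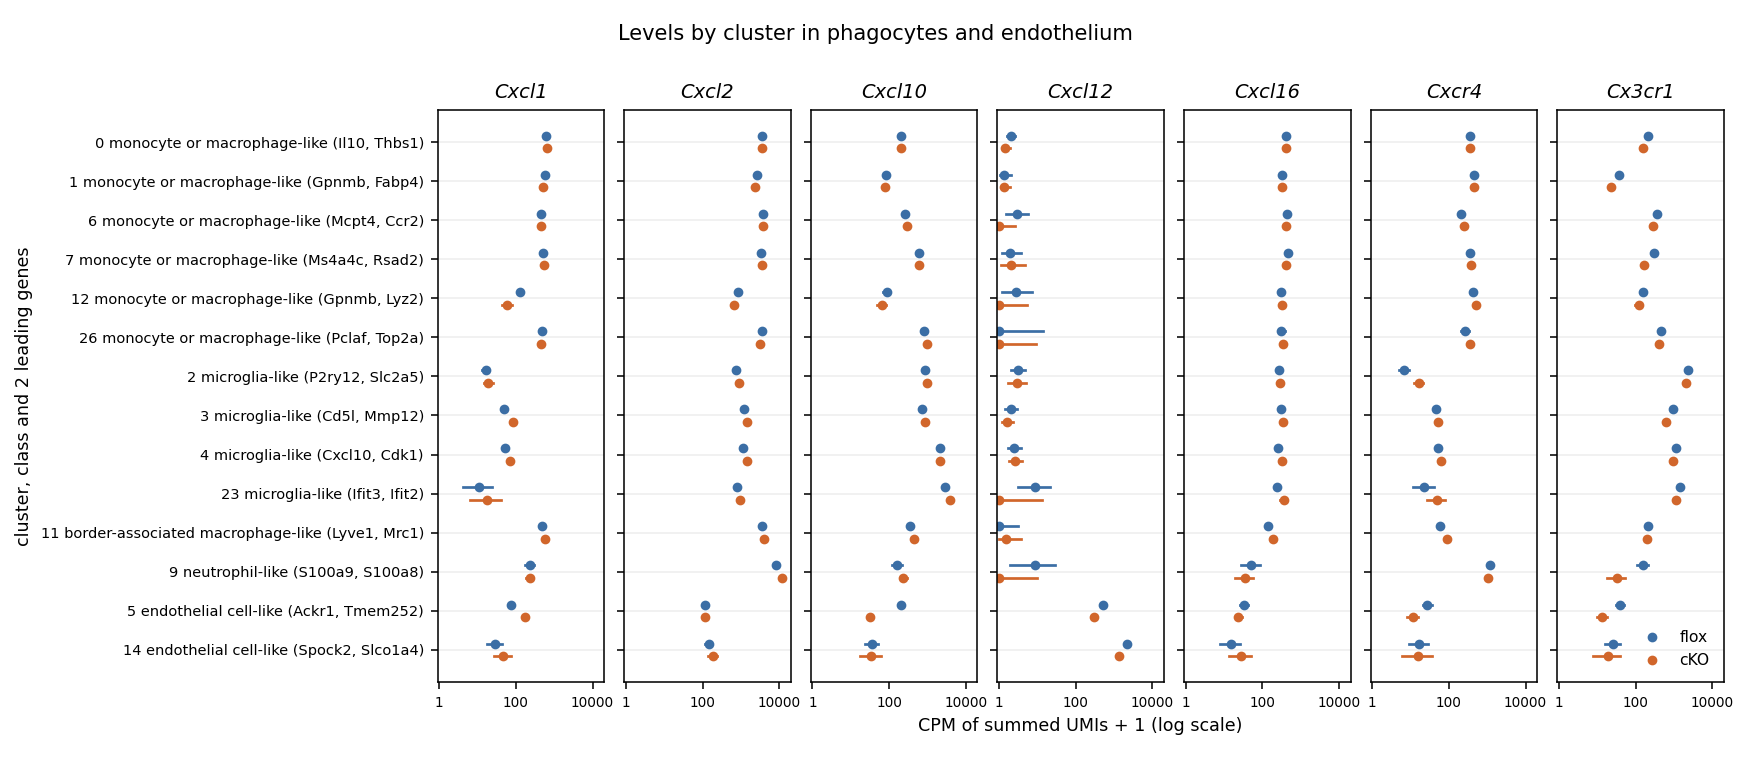
Levels of 7 of the genes by cluster in phagocytes and endothelium. Each row is a cluster with its class and its 2 leading genes, the horizontal axis is CPM + 1 on a log scale, points are the flox and cKO libraries, and lines are exact Poisson 95% intervals. Cxcl10 is highest in microglia-like clusters 23 and 4, Cx3cr1 in cluster 2 and Cxcl12 in endothelial cell-like cluster 14.

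Cxcl12 was an endothelial transcript in these libraries. Endothelial cell-like cells stood at 972 CPM (936 to 1009) in flox and 389 CPM (370 to 409) in cKO and held 92.8% and 84.6% of its UMIs. Fibroblast-like cells stood at 232 and 153 CPM and mural cells at 80.1 and 25.4 CPM. These 3 classes did not overlap with each other, whereas monocyte or macrophage-like and microglia-like cells had at most 1.62 CPM. Of the pair of endothelial clusters, cluster 14, led by Spock2 and the blood-brain barrier transporter Slco1a4, had 2156 and 1312 CPM, and cluster 5, led by the venular chemokine scavenger Ackr1 and Tmem252, had 522 and 302 CPM. The former was higher in both libraries.

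Cxcl16 was spread over the dendritic, macrophage and microglial classes, but was low in neutrophil-like cells (50.3 and 33.4 CPM). Dendritic cell-like cells had 700 CPM in flox and 746 CPM in cKO, macrophage-like cells at 388 and 371 CPM, microglia-like cells at 281 and 327 CPM and border-associated macrophage-like cells at 139 and 187 CPM, and no neighbours in this order overlapped. Within dendritic cell-like cells, cluster 25, led by the migratory receptor gene Ccr7, had 1283 and 1049 CPM, against 651 and 708 CPM in cluster 10. Cxcl16 overlaps an exon of Zmynd15 on the opposite strand, which held 961 UMIs in flox and 166 in cKO.

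Cxcr2, the receptor for Cxcl1, Cxcl2 and Cxcl3, was almost confined to neutrophil-like cells among the 15 classes. It stood there at 1711 CPM (1555 to 1878) in flox and 2113 CPM (1977 to 2257) in cKO, which was 83.9% and 90.8% of its UMIs, and no other class exceeded 13.9 CPM in either library. Neutrophil-like cells were shallow, with medians of 1065 and 1296.5 UMIs, yet 72.5% and 77.5% of them held a Cxcr2 UMI, against 0.662% and 0.683% of macrophage-like cells with medians of 7957 and 10068.5 UMIs. The class with the highest Cxcl2 CPM also carried its receptor: at 1000 UMIs per cell, which 124 of 207 flox and 234 of 302 cKO neutrophil-like cells reached, 80 of 84 and 161 of 166 Cxcr2-positive cells held a Cxcl2 UMI. The shares given above for all neutrophil-like cells at this depth were nearly as high, so Cxcl2 detection was not particular to the Cxcr2-positive cells.

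Cxcr4, the receptor of Cxcl12, reached 1204 CPM in flox and 1029 CPM in cKO neutrophil-like cells. Macrophage-like cells followed with 370 and 380 CPM, dendritic cell-like cells with 229 and 226 CPM and NK cell or T cell-like cells with 239 and 150 CPM. The first 2 of these classes stood apart from all others, while dendritic cell-like and NK cell or T cell-like cells overlapped. Microglia-like cells had 36.1 and 48.4 CPM, and in their P2ry12-led cluster 2 the level was 5.65 and 15.5 CPM. Macrophage-like cells, the most numerous class and deeper than neutrophil-like cells, held 86.9% and 84.6% of the Cxcr4 UMIs. Receptor and ligand lay in different classes, since Cxcr4 stood at 23.5 and 10.7 CPM in endothelial cell-like cells.

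Cx3cr1 stood at 1371 CPM (1355 to 1386) in flox and 963 CPM (950 to 977) in cKO microglia-like cells, which held 81.5% and 79.6% of its UMIs. Border-associated macrophage-like cells had 208 and 200 CPM and macrophage-like cells 186 and 122 CPM. Microglia-like cells were the highest in both libraries, and at 1000 UMIs per cell 72.8% and 59.8% of them held a UMI. Cluster 2 was the highest with 2348 and 2024 CPM, followed by cluster 23 with 1438 and 1145 CPM, cluster 4 with 1144 and 947 CPM and cluster 3 with 922 and 615 CPM. Cx3cr1 was thus lowest in the microglia-like cluster led by Cd5l and Mmp12.

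Of the 80 pairs of gene and compared class, 35 reached 30 UMIs and 100 CPM in the higher library. A pair was counted as past the size rule when the libraries differed at least 2-fold and the interval excluded equality. By that rule 8 of the 35 pairs differed, 5 higher and 3 lower in cKO. Over all genes that met the minimum in the same classes, 4.7% of 15056 pairs were past the rule, 0.837% higher and 3.86% lower. All 8 pairs were in endothelial cell-like, mural and neutrophil-like cells, where the share of genes past the rule was 5.33% (0.527% higher, 4.8% lower), 8.12% (3.36% higher, 4.76% lower) and 6.05% (1.86% higher, 4.19% lower). None was in monocyte or macrophage-like, microglia-like, oligodendrocyte-like, dendritic cell-like or border-associated macrophage-like cells, where that share was 3.42%, 3.95%, 3.61%, 2.76% and 4.05%.

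**Figure D4:**
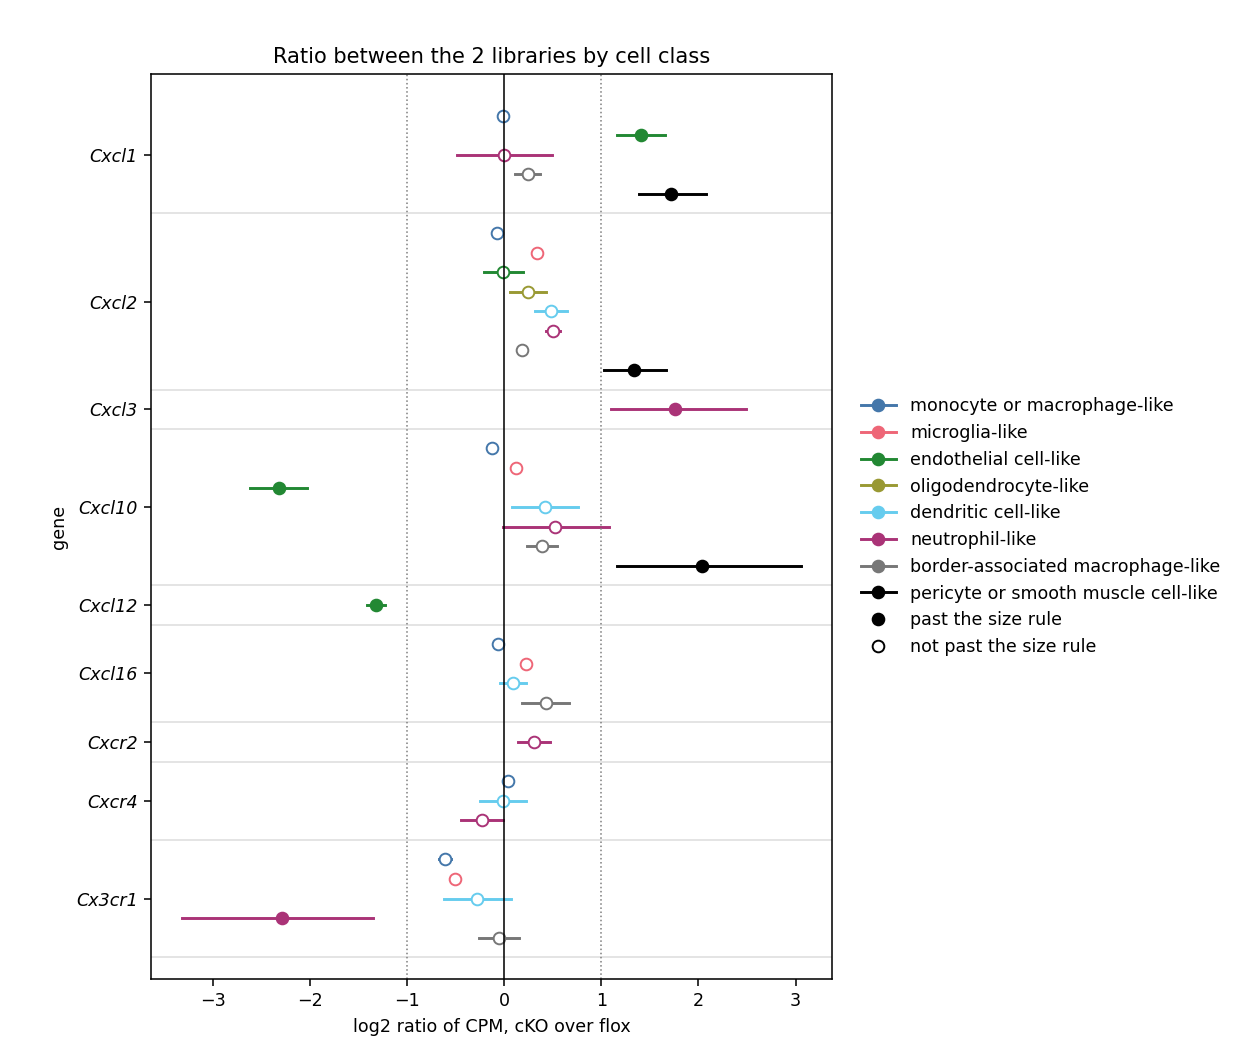
Ratio of CPM, cKO over flox, on the log2 scale for the 35 pairs of gene and class that met the minimum. Points are ratios, lines are exact 95% intervals (counting error only), filled points are past the size rule and dotted lines mark 2-fold. The filled points belong to endothelial cell-like, mural and neutrophil-like cells, and macrophage-like ratios lie close to 0 except that of Cx3cr1.

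In endothelial cell-like cells Cxcl1 was higher in cKO and Cxcl12 and Cxcl10 were lower. Cxcl1 rested on 174 UMIs in flox and 644 in cKO (61.9 and 164 CPM), a log2 ratio of 1.41 (1.16 to 1.66), whereas Cxcl2 was level (125 and 124 CPM, log2 ratio -0.01). At 1000 UMIs per cell 3.16% of flox and 10.7% of cKO endothelial cell-like cells held a Cxcl1 UMI. Monocyte or macrophage markers other than Fn1, which endothelium also expresses, summed to 163 and 148 CPM in this class, and all 11 with Fn1 to 2755 and 2907 CPM, with none at 0. For Cxcl12 there were 2730 and 1524 UMIs, a log2 ratio of -1.32 (-1.41 to -1.23). Relative to the median ratio of Cxcl12 in the other compared classes with at least 30 of its UMIs it was -0.51, which is not past the size rule. Those classes held few Cxcl12 UMIs, such as 39 and 20 in mural cells and 36 and 24 in microglia-like cells, so this reference is uncertain.

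The make-up of the endothelial class differed between the libraries. The Cxcl12-rich cluster 14 gave 218 of 563 flox and 83 of 545 cKO cells, and cluster 5 gave 345 and 462. Within cluster 14 the log2 ratio of Cxcl12 was -0.72 (-0.87 to -0.56) and within cluster 5 it was -0.79 (-0.91 to -0.66), so that Cxcl12 was lower in cKO within each cluster but by less than 2-fold. The mean of the ratios within clusters was -0.75. For Cxcl1 the log2 ratio was 1.22 (0.97 to 1.49) in cluster 5 and 0.72 (-0.34 to 1.75) in cluster 14, on 21 and 15 UMIs, and the mean of 0.97 was under the 2-fold limit.

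The endothelial Cxcl10 difference came from few cells. There were 440 UMIs in flox and 123 in cKO (157 and 31.4 CPM, log2 ratio -2.32, interval -2.62 to -2.03), but 5 flox cells held 371 of the 440 UMIs. Without the 5 cells of each library with most Cxcl10 UMIs the levels were 24.9 and 16.8 CPM and the log2 ratio was -0.57. Within cluster 5 the log2 ratio was -2.70 and within cluster 14 it was -0.09. The share of endothelial cell-like cells with a Cxcl10 UMI was 10.8% and 10.3%. Microglial markers other than Sparc, which vessels also express, summed to 356 and 199 CPM in this class, with none at 0, and to 11162 and 10246 CPM in microglia-like cells. The whole microglial list with Sparc summed to 8101 and 10793 CPM, and the part of microglial RNA in the result was not tested.

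In mural cells Cxcl1, Cxcl2 and Cxcl10 were all higher in cKO. Cxcl1 had 84 and 449 UMIs (173 and 569 CPM), a log2 ratio of 1.72 (1.38 to 2.08). Cxcl2 had 104 and 426 UMIs (214 and 540 CPM), a log2 ratio of 1.34 (1.03 to 1.66). Cxcl10 had only 12 and 80 UMIs (24.6 and 101 CPM), a log2 ratio of 2.04 (1.16 to 3.05), and 61 of the 80 came from 5 cells. Weighted equally per cell, Cxcl10 had a log2 ratio of -0.17, and without those cells it no longer reached the minimum. With each cell gated on its own by markers the Cxcl2 ratio was -0.17, and with equal weight per cell it was 0.51.

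Phagocyte markers were also higher in the cKO mural cells. Microglial markers other than Sparc summed to 296 CPM in flox, with 1 of 9 at 0, and to 800 CPM in cKO with none at 0, and with Sparc the sums were 6922 and 8365 CPM. The 11 monocyte or macrophage markers summed to 1485 CPM with 1 at 0 and to 1789 CPM with none at 0. Without Fn1 these sums were 805 and 1272 CPM. The part of phagocyte RNA in the Cxcl1, Cxcl2 and Cxcl10 ratios was not tested. Median UMIs per mural cell were 3208 in flox and 6003 in cKO.

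In neutrophil-like cells Cxcl3 was higher in cKO, with 22 and 121 UMIs and a log2 ratio of 1.76 (1.10 to 2.49). With each cell gated on its own by markers the ratio was 1.84 but was not past the rule. It was detected in 6.28% of flox and 12.6% of cKO cells. The 11 monocyte or macrophage markers summed to 1974 CPM with none at 0 in these flox cells and to 1618 CPM with 1 at 0 in cKO. Cxcl2 had a log2 ratio of 0.51 (0.43 to 0.58), Cxcr2 of 0.30 (0.14 to 0.47), Cxcr4 of -0.23 (-0.44 to -0.01) and Cxcl1 of 0.00 (-0.48 to 0.50), all less than 2-fold. Cx3cr1 was lower in cKO, with 39 and 13 UMIs and a log2 ratio of -2.28 (-3.31 to -1.35), but 25 of the 39 flox UMIs came from 1 cell. Without the 5 cells of each library with most Cx3cr1 UMIs, the levels were 33.1 and 17.0 CPM and the log2 ratio was -0.96 (-2.66 to 0.70), and among cells with at most 10% mitochondrial UMIs it was -0.77. P2ry12, a microglial marker, stood at 92.9 and 131 CPM in neutrophil-like cells. Summed microglial markers there were 1982 CPM in flox with none at 0 and 1670 CPM in cKO with 1 at 0, and their part in the Cx3cr1 ratio was not tested.

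The large phagocyte classes differed by less than 2-fold for all members that met the minimum. In macrophage-like cells the log2 ratios were -0.01 (-0.04 to 0.02) for Cxcl1, -0.08 (-0.09 to -0.07) for Cxcl2, -0.12 for Cxcl10, -0.06 for Cxcl16 and 0.04 for Cxcr4. In microglia-like cells they were 0.34 (0.31 to 0.36) for Cxcl2, 0.12 for Cxcl10 and 0.22 for Cxcl16. The median over all genes that met the minimum was 0.06 in macrophage-like cells, with 0.05 in microglia-like cells.

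Cx3cr1 was the member that was lower in cKO in both of these classes, with a log2 ratio of -0.61 (-0.67 to -0.55) in macrophage-like cells and of -0.51 (-0.53 to -0.48) in microglia-like cells. In macrophage-like cells 5.24% of the genes that met the minimum had a lower ratio than this. The microglial clusters were unequally filled, with 953 flox and 425 cKO cells in the Cx3cr1-rich cluster 2 and 651 and 563 cells in cluster 3. Within clusters the log2 ratio was -0.21 in cluster 2, -0.58 in cluster 3, -0.27 in cluster 4 and -0.33 in cluster 23, lower in cKO in all 4. All 6 macrophage-like clusters were also lower in cKO, from -0.20 in cluster 26, whose interval included 0 (-0.54 to 0.14), to -0.89 in cluster 7. In border-associated macrophage-like cells the log2 ratio was -0.05 (-0.26 to 0.16). P2ry12 had 619 CPM in flox and 375 CPM in cKO microglia-like cells.

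Few of the other ligands and receptors were past the size rule in a compared class, although some had high levels. Cd74, listed with the receptors, stood at 18160 and 21239 CPM in dendritic cell-like cells, and Cxcl14 at 224 and 276 CPM in astrocyte-like cells. Of 8 other CXC and CX3C ligands, Pf4, a platelet and macrophage chemokine, met the minimum in macrophage-like cells (301 and 386 CPM) and border-associated macrophage-like cells (886 and 890 CPM), and of the compared classes was past the rule only in mural cells, where it was higher in cKO (39.0 and 123 CPM, log2 ratio 1.66). Cxcl11 was also looked for but was not found by symbol among the features, so it was not analysed here. Fractalkine, Cx3cl1, stood at 43.1 and 26.5 CPM in endothelial cell-like cells. Cxcl5 had 1 UMI in flox and 0 in cKO macrophage-like cells. Of 7 other receptors and scavengers, Ackr1, a scavenger of venules, stood at 411 and 820 CPM in endothelial cell-like cells. Its log2 ratio was 0.996, just under the 2-fold limit. Cluster 5, which Ackr1 led, was more frequent in cKO, and the part of this in the ratio was not tested. Ackr3, the scavenger of Cxcl12, was lower in cKO mural cells (279 and 137 CPM, log2 ratio -1.03). Cxcr3, the receptor of Cxcl9 and Cxcl10, stood at 107 and 39.5 CPM in NK cell or T cell-like cells, on only 13 and 5 UMIs. Cxcr6, the receptor of Cxcl16, stood there at 57.7 and 55.4 CPM on 7 UMIs in each library.

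Among 12 genes of receptor signalling, the kinase Grk2, which desensitises chemokine receptors, was lower in cKO in macrophage-like (185 and 89.3 CPM, log2 ratio -1.05), microglia-like (-1.10), dendritic cell-like (-1.16) and border-associated macrophage-like cells (-1.05). The shares of all genes lower by the rule in these classes were 3.36%, 3.78%, 2.7% and 3.72%. No other gene of that list was past the rule in a compared class, and its medians lay between -0.17 and 0.12. None of 5 ligand-processing enzymes was past the rule in a compared class; Mmp9, a protease that trims CXC ligands, stood at 1885 and 2171 CPM in neutrophil-like cells.

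Of 11 NF-kB response genes, 3 of the 8 that met the minimum were higher in cKO in mural cells, namely Tnfaip3 (log2 ratio 1.21), Tnf (1.13) and Ccl4 (1.25), with a median of 0.67 against 0.03 over all genes. The share of all mural genes higher in cKO by the rule was 3.36%. Ccl4 and Tnf stood at 4674 and 2645 CPM in flox microglia-like cells, and the phagocyte markers given above were higher in the same mural cells. The part of phagocyte RNA in these ratios was not tested. In endothelial cell-like cells 1 of 8 was higher, the adhesion molecule Icam1 (195 and 457 CPM, log2 ratio 1.23). No gene of the list was past the rule in the other 6 compared classes.

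Genes with the most similar class pattern were found by the Pearson correlation of log2(CPM + 10) over 15 classes in both libraries, 30 points that share libraries and depth, among 12366 candidate genes. For Cxcl2 these were C5ar1 (r = 0.97), Slfn2 and Rab32, and for Cxcl3 they were Cnr2 (0.90), Fpr1 and Fpr2. Cxcl1 had no close match (Ier3, 0.76). Cxcl10 was most like Csf1r (0.80), P2ry12 and Sirpa, Cxcl12 like the endothelial cadherin gene Cdh5 (0.95), Meox1 and Itm2a, and Cxcl16 like Gpr137b (0.92), Irf5 and Cd83. Cxcr2 followed Il1f9 (0.98), Ltf and Wfdc21, Cxcr4 followed Pim1 (0.92), Cd274 and Cd300lf, and Cx3cr1 followed Ly86 (0.94) and Lair1. For Cxcl9, with so few UMIs, the values were not read. Between members the correlations were highest for Cxcl2 with Cxcr4 (0.81) and with Cxcl3 (0.80).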

How the data were processed

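The deposited tables hold raw UMI counts that the authors did not normalize, as whole numbers for each barcode and gene. Per the submitters' processing notes, CASAVA 1.8, STARsolo and Seurat were used and the genome build was mm10; the annotation and strand setting were not given in the sources used here. GENCODE vM21 supplied coordinates. Cells with at least 500 UMIs, 200 genes and at most 25% mitochondrial UMIs were kept. Scrublet (scanpy 1.11.5) removed 210 cells (2.54%) of the flox library and 142 (1.99%) of the cKO library as doublets. Cells of both libraries were clustered with Leiden (leidenalg 0.10.2) at resolution 1 into 28 clusters, without 1040 genes that included the members and all gene lists. Clusters were named from lists of markers that hold no member, by thresholds set after the clusters were seen; 177 of 8065 flox and 167 of 6984 cKO cells stayed unnamed. The genes and lists were chosen with earlier results of these data known. All 10 members are named, the 3 most similar genes of each, and list genes past the size rule, except for a few results that are not reported here; the other list genes named were chosen after their values were seen. A library at 0 was set against a floor of 3 counts. TMM factors came from edgeR 4.0.16, and the ratio calculation was tested on simulated counts.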

Additional observations from a re-analysis of the deposited data

Results flagged for a closer look

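Cxcl10 moved in opposite directions in the 2 vessel classes. Its log2 ratio of cKO over flox was 2.04 in mural cells (12 and 80 UMIs) and -2.32 in endothelial cell-like cells (440 and 123 UMIs), and the difference between these ratios was not tested. Few cells held most of the UMIs in both classes, 61 of the 80 in 5 cKO mural cells and 371 of the 440 in 5 flox endothelial cell-like cells. Without the 5 cells of each library with most Cxcl10 UMIs the ratios were 1.28 (-0.19 to 3.06) and -0.57 (-1.08 to -0.06).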

How the results depend on the processing

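No paired analysis was possible because each group has 1 library. The class with the highest mean level was the same for all 10 genes under each of 5 alternatives, which use largely the same cells. For Cxcl9 that class rested on 6 UMIs of 1 flox cell, and for Cxcl1 it was not the highest in cKO. The 8 pairs past the size rule were 8 with doublets kept, at resolution 2, under TMM scaling and relative to genes of similar GC content, and 7 relative to the other classes or with each cell gated on its own, where 6 of the 7 were shared. They were 4 with at most 10% mitochondrial UMIs, where mural cells had too few cells to be compared, 5 with equal weight per cell, 13 with no CPM minimum, and 5 without the 5 cells with most UMIs of the gene, an alternative chosen after the data were seen, as was the mean within endothelial clusters. Gated cell by cell, Cxcl2 in mural cells was -0.17, and with equal weight per cell Cxcl10 in mural cells was -0.17; the cause was not tested. Cx3cr1 in neutrophil-like cells was -0.77 with at most 10% mitochondrial UMIs. Cxcl12 in endothelial cell-like cells was -0.51 relative to the other classes, which held few of its UMIs. TMM moved endothelial ratios by 0.11. Of 351 alternative values of the 35 ratios, 262 stayed within the interval of the reported value, 87 moved outside it and 2, of pairs past the rule, changed sign. The highest share of cells lay in the class of the highest CPM for 8 genes, for 5 without thinning and for 7 at 2000 UMIs per cell.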
